A study of Mus musculus with 6 samples.

Results

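The genes of hepatic gluconeogenesis and insulin signalling were followed in livers of mice with diet-induced fatty liver that received atractylodin, a polyacetylene of Atractylodes rhizomes. The set was a list of 10 gene symbols: the gluconeogenic enzymes Pck1, G6pc, Fbp1 and Pcx, the transcription factors Foxo1 and Foxo3, the coactivator Ppargc1a, the insulin receptor Insr and its substrates Irs1 and Irs2. Each symbol matched 1 of the 23282 rows of the deposited count tables, and 9 of the 10 had enough counts to be tested. Male C57BL/6N mice started a high-fat diet at 8 weeks of age and ate it for 12 weeks. The atractylodin group (3 libraries) was dosed by mouth at 10 mg/kg on 5 days a week for the last 4 weeks, and the vehicle group (3 libraries) received vehicle on the same diet. Both groups were thus on the high-fat diet, and no lean group was analysed here. Liver RNA was profiled with QuantSeq, which sequences the 3' ends of transcripts. The labels do not tie each numbered library to its own animal, and p-values therefore describe differences among libraries that may be technical.

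Gluconeogenesis makes glucose from pyruvate, lactate, amino acids and glycerol, and liver is its main site during fasting. Pyruvate carboxylase (Pcx) and cytosolic phosphoenolpyruvate carboxykinase (Pck1) open the pathway, fructose-1,6-bisphosphatase (Fbp1) acts in the middle, and the glucose-6-phosphatase catalytic subunit (G6pc) releases free glucose. Insulin acts through its receptor and the substrates IRS1 and IRS2 to activate AKT, which phosphorylates FOXO1 and keeps it out of the nucleus. Glucagon, through cAMP, and glucocorticoids act in the opposite sense, and PGC-1alpha (Ppargc1a) coactivates FOXO1 and HNF4alpha at gluconeogenic promoters.

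Total counts were 9871762 to 12565393 in the atractylodin libraries and 1831461 to 12111553 in the vehicle libraries. Vehicle 1 was the shallow one: 3 counts equalled 1.61 CPM there and at most 0.313 CPM in the other 5 libraries (CPM, or counts scaled to a common library size, used TMM factors, and this floor covers counting error only). The changes of the 9 tested genes and the counts over lists were therefore also computed without vehicle 1. Defining markers of liver were abundant: 9 hepatocyte genes such as Alb and Apoa1 summed to 122624 to 125119 CPM in atractylodin libraries and 118718 to 136142 CPM in vehicle libraries. None of the 9 passed in edgeR, DESeq2 or limma-voom (1 had an unadjusted p under 0.05 in edgeR), and 1 fell with total counts scaling.

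Of the 9 tested genes, 3 passed edgeR's quasi-likelihood test at an adjusted p of 0.05: Pck1 and Foxo1 rose and Pcx fell. Among all 12505 rows tested, 7.25% passed, 3.92% higher and 3.33% lower with atractylodin. G6pc, Fbp1, Ppargc1a, Insr, Irs1 and Irs2 did not pass, and Foxo3 was too low to be tested. For 5 of the 9 genes the atractylodin libraries all lay on 1 side of the vehicle libraries, a separation seen in 26.2% of tested rows. Scaling by total counts changed the split over all rows to 312 higher and 707 lower, against 490 higher and 416 lower with TMM, and left the same number of calls among the 9 genes.

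**Figure D1:**
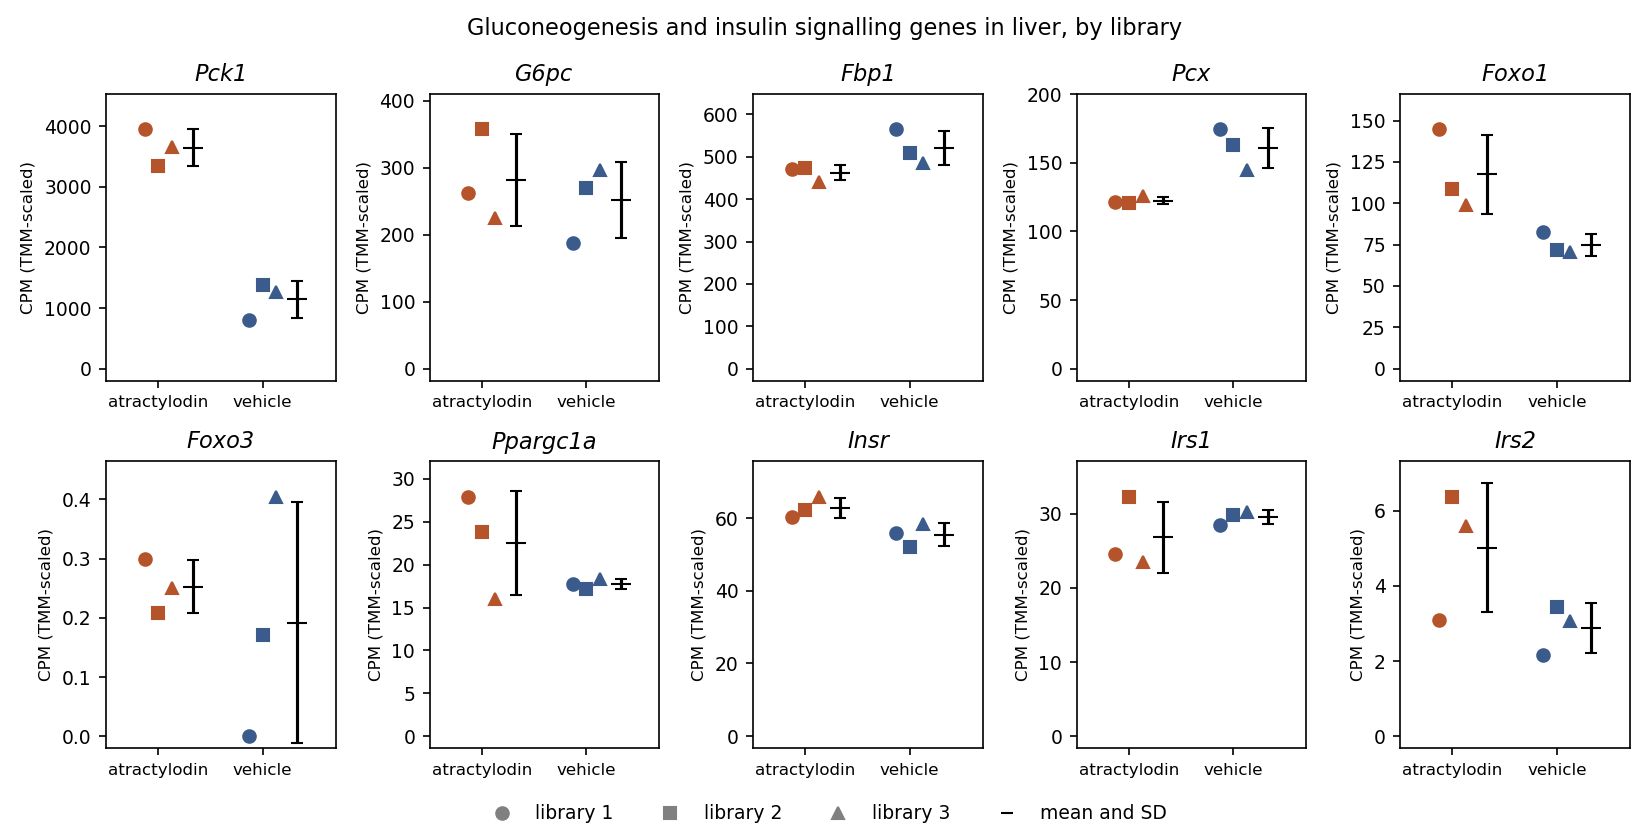
CPM of the 10 genes in each library (y axis, linear; each panel has its own scale), with atractylodin on the left and vehicle on the right of each panel, markers for libraries 1 to 3 and a black bar for the mean and SD. The 3 atractylodin libraries sit between 3336 and 3945 CPM for Pck1, all above the vehicle libraries, while G6pc, Irs1, Irs2, Ppargc1a and Foxo3 overlap between groups.

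The sequences just upstream of Pck1 and Foxo1 are shown because these are the genes of the set that rose. They are RefSeq promoter sequences (GRCm38.p6, plus strand, 5' to 3'), cut before the transcript start of both RefSeq and GENCODE M21. The Pck1 stretch is chr2:173152823-173153047 and the Foxo1 stretch is chr3:52268087-52268335. Capitals mark matches to any of the motifs searched on both strands.
Pck1: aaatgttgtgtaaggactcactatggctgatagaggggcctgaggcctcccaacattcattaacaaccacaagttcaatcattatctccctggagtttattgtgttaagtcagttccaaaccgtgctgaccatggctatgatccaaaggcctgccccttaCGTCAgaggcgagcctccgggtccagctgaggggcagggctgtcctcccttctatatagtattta
Foxo1: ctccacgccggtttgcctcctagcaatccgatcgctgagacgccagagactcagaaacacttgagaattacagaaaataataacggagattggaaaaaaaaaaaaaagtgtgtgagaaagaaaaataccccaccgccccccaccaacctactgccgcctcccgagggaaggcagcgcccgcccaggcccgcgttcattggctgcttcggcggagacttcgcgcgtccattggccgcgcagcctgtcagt

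The capitals in Pck1 are a cAMP response element half-site (TGACG) read on the opposite strand, from -90 to -86 relative to the RefSeq start. This lies in the cAMP response element of the Pck1 promoter, which is best known from the rat gene and binds CREB and C/EBP factors. Windows of 300 bases, from 250 before to 50 after a start, were available for 9 of the 10 genes. The half-site occurred in the windows of Pck1, Ppargc1a, Irs1 and Foxo3 and in 20.8% of all 32851 windows. The nuclear receptor half-site AGGTCA occurred in those of G6pc and Pcx and in 16.3% of all windows. The FOXO motif GTAAACA, the full palindromic cAMP response element (TGACG followed by TCA) and a glucocorticoid receptor motif of ACA and TGT spaced by 3 bases matched none of the 9 genes' windows, against 3.65%, 1.79% and 6.85% of all windows. The windows are short, and no match says only that these letters are not in them.

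Among the enzymes, Pck1 changed most. Pck1 (chr2:173153048-173159273, GRCm38, plus strand), which converts oxaloacetate to phosphoenolpyruvate, had 3945, 3336 and 3650 CPM in the atractylodin libraries, against 804, 1373 and 1259 CPM in the vehicle libraries. Every atractylodin library was above the highest vehicle library, and vehicle 1 was the lowest of all 6. The log2 fold change was 1.67 ± 0.19 (SE), or 3.17-fold higher, with an edgeR adjusted p of 0.00247. Without vehicle 1 the log2 fold change was 1.47 ± 0.13 (SE, edgeR adjusted p = 1.55e-05), and the call held in all 6 fits that left out 1 library. Pck1 ranked 136 by p among the 12505 tested rows.

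Pcx (chr19:4510472-4621752), the mitochondrial enzyme that makes oxaloacetate from pyruvate, went the other way. It had 121, 121 and 126 CPM in the atractylodin libraries, against 174, 163 and 145 CPM in the vehicle libraries. The groups did not overlap, and the atractylodin libraries had a coefficient of variation of 2.11%. The log2 fold change was -0.38 ± 0.09 (SE), or 1.31-fold lower, with an edgeR adjusted p of 0.0174. Leaving out vehicle 1, vehicle 2 or atractylodin 2 ended the call, at edgeR adjusted p of 0.0992, 0.0599 and 0.0522. Pcx overlaps Lrfn4 on the opposite strand, and the strand setting of the counting is not given in the sources used here.

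G6pc (chr11:101367561-101377903), the last step to free glucose, had 262, 357 and 225 CPM in the atractylodin libraries, against 187, 270 and 296 CPM in the vehicle libraries. The groups overlapped, with the highest value in atractylodin 2 and the lowest in vehicle 1. The log2 fold change was 0.15 ± 0.24 (SE, edgeR adjusted p = 0.788), with a 95% interval of -0.45 to 0.75, and its sign turned without vehicle 1 (-0.0076) and without atractylodin 2 (-0.058). Fbp1 (chr13:62864753-62888282), which removes a phosphate from fructose-1,6-bisphosphate, had 470, 474 and 442 CPM in the atractylodin libraries, against 565, 509 and 486 CPM in the vehicle libraries. All 3 atractylodin values were below the vehicle values, but the change did not pass (log2 -0.17 ± 0.09, edgeR adjusted p = 0.317, 95% interval -0.36 to 0.03).

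The ratio of 2 genes' counts within a library does not depend on its depth or scaling, and was computed for pairs chosen after their values were seen, so it carries no test. Counts of Pck1 were 15.1, 9.35 and 16.3 times those of G6pc in atractylodin libraries, against 4.29, 5.09 and 4.25 times in vehicle libraries. Pck1 counts were 32.6, 27.6 and 29.1 times those of Pcx in atractylodin libraries, against 4.61, 8.42 and 8.68 times in vehicle libraries. Neither ratio overlapped between groups, and the mean log2 ratio to G6pc was 1.54 higher with atractylodin and that to Pcx 2.09 higher. These are ratios of 3' tags, whose yield per transcript can differ between genes, so only their difference between groups is read.

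**Figure D2:**
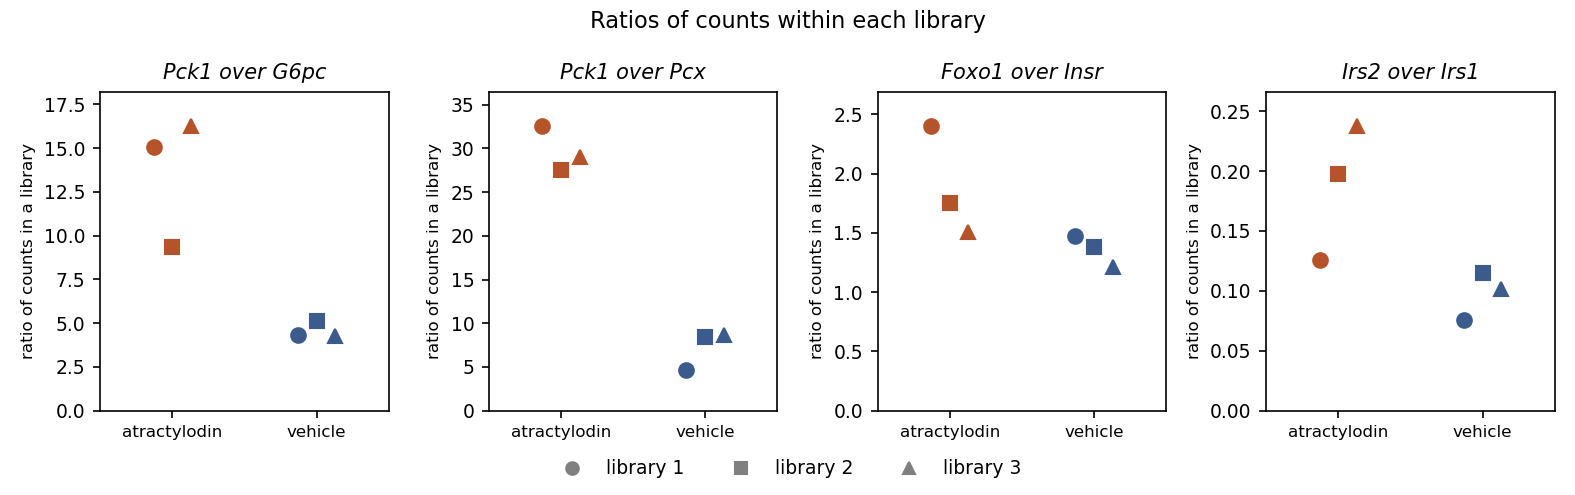
Ratio of the counts of 2 genes within each library (y axis, linear, from 0), with atractylodin left and vehicle right and a marker shape for each library number. The groups do not overlap in any of the 4 ratios, which were chosen after the values were seen. Pck1 over Pcx lies at 27.6 to 32.6 with atractylodin and at 4.61 to 8.68 with vehicle.

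Of the transcriptional regulators, Foxo1 rose. Foxo1 (chr3:52268336-52353221), the forkhead factor that insulin inactivates through AKT, had 145, 109 and 98.9 CPM in the atractylodin libraries, against 82.4, 71.7 and 70.5 CPM in the vehicle libraries. All atractylodin values were above all vehicle values, and atractylodin 1 was the highest. The log2 fold change was 0.67 ± 0.13 (SE), or 1.59-fold higher, with an edgeR adjusted p of 0.00676, and the call held in all 6 fits that left out 1 library (adjusted p up to 0.0494). Foxo1 overlaps the transcript model Gm38034 on its own strand and the antisense gene Gm20402. Liver endothelial cells also express Foxo1. Of 14 endothelial markers 1 rose and 2 fell, so that 21.4% passed where 7.25% of all rows did, and none passed without vehicle 1. Their sum was 455 to 473 CPM with atractylodin and 509 to 528 CPM with vehicle. The part of endothelial cells in the change of Foxo1 was not tested. In bulk tissue, fewer cells of a type and less RNA per cell cannot be told apart.

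Foxo3 (chr10:42181841-42276755), the related forkhead factor, had 3, 2 and 3 counts in the atractylodin libraries, against 0, 2 and 5 counts in the vehicle libraries. Those are at or near the floor of 3 counts, and a difference was not detectable at this depth. Ppargc1a (chr5:51454250-51567726) had 27.9, 23.8 and 15.95 CPM in the atractylodin libraries, against 17.8, 17.2 and 18.4 CPM in the vehicle libraries. The atractylodin libraries spread widely, with atractylodin 3 under every vehicle library, and the log2 fold change of 0.34 ± 0.19 did not pass (SE, edgeR adjusted p = 0.317, 95% interval -0.06 to 0.73).

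The receptor and its substrates did not pass the test. Insr (chr8:3122061-3279617) had 60.3, 62.2 and 65.8 CPM in the atractylodin libraries, against 56.0, 52.0 and 58.3 CPM in the vehicle libraries. All atractylodin values were above all vehicle values, but the log2 fold change was small (0.18 ± 0.10, edgeR adjusted p = 0.337, 95% interval -0.04 to 0.40). Irs1 (chr1:82233101-82291416) had 24.6, 32.3 and 23.6 CPM in the atractylodin libraries, against 28.5, 29.9 and 30.2 CPM in the vehicle libraries. Atractylodin 1 and 3 were below the vehicle group and atractylodin 2 was above it (log2 -0.15 ± 0.15, edgeR adjusted p = 0.601, 95% interval -0.46 to 0.15). Irs2 (chr8:10984681-11008458), a substrate known to be raised by FOXO1 in fasted liver, had 31, 61 and 67 counts in the atractylodin libraries, against 4, 40 and 38 counts in the vehicle libraries.

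On the CPM scale Irs2 was at 3.09, 6.37 and 5.595 with atractylodin, against 2.15, 3.43 and 3.07 with vehicle. The groups overlapped by atractylodin 1, which was below vehicle 2. The log2 fold change of 0.70 ± 0.34 was as large as that of Foxo1 but rested on few counts and did not pass (SE, edgeR adjusted p = 0.244, 95% interval -0.01 to 1.42). Within libraries, Irs2 counts were 0.126, 0.197 and 0.238 of those of Irs1 with atractylodin, against 0.0755, 0.115 and 0.102 with vehicle, and Foxo1 counts were 2.40, 1.75 and 1.503 times those of Insr with atractylodin, against 1.47, 1.38 and 1.21 times with vehicle. Neither ratio overlapped between groups, but the gaps were small. The nearest values were 0.126 and 0.115 for Irs2 over Irs1, and 1.503 and 1.47 for Foxo1 over Insr. Vehicle 1 had only 4 counts of Irs2. These pairs too were chosen after their values were seen, and the share of other gene pairs that separate was not computed.

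**Figure D3:**
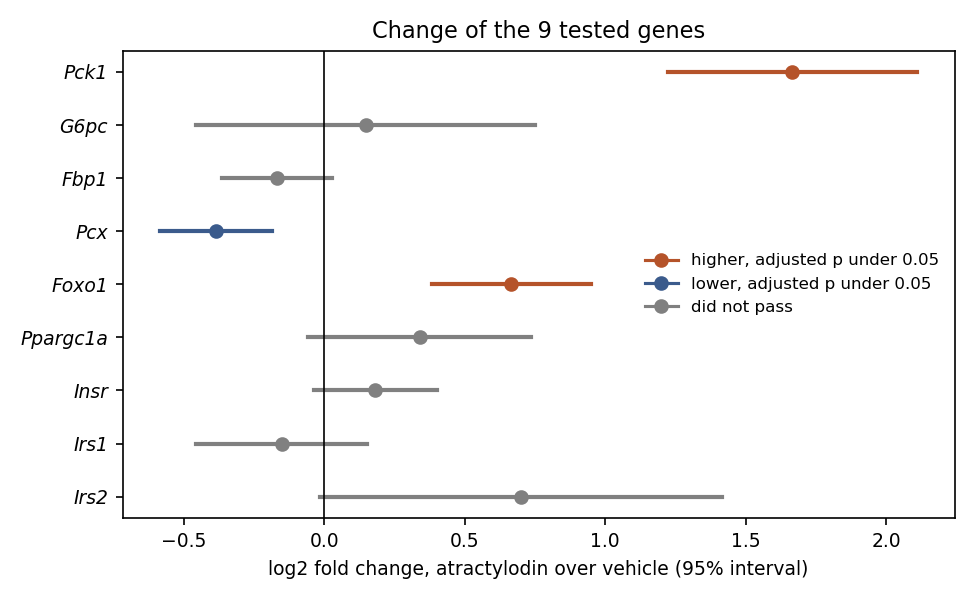
Log2 fold change of the 9 tested genes, atractylodin over vehicle (x axis), as a point with its 95% interval from edgeR's fit. Pck1 at 1.67 and Foxo1 at 0.67 lie to the right of 0 and Pcx at -0.38 to the left with an adjusted p under 0.05, and the intervals of the other 6 genes include 0.

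The other enzymes and carriers of the pathway moved in both directions. Of 25 tested, 2 rose, 2 fell and 21 did not pass, so that 16% passed where 7.25% of all rows did, and the median log2 fold change was -0.01, against -0.0015 over all tested rows. Gyk, glycerol kinase, had 279, 291 and 275 CPM with atractylodin, against 195, 235 and 238 CPM with vehicle (edgeR adjusted p = 0.0413). The cytosolic glycerol-3-phosphate dehydrogenase gene Gpd1 fell to 246, 190 and 224 CPM with atractylodin, against 418, 388 and 416 CPM with vehicle (log2 -0.89 ± 0.10, edgeR adjusted p = 5.33e-05). Its mitochondrial counterpart Gpd2 fell 1.34-fold (adjusted p = 0.0356), and Mpc2, a subunit of the mitochondrial pyruvate carrier, rose 1.27-fold (adjusted p = 0.0348). Of the 4, Gpd1 alone passed without vehicle 1, and Gyk did not pass in any fit without 1 library. Over those 6 fits the list had 0 to 2 rises and 1 to 2 falls, and with total counts scaling or the replicate block it had 0 rises and 2 falls. Tat, tyrosine aminotransferase of amino acid entry, was named after its values were seen. It ranged from 191 to 638 CPM with atractylodin and from 162 to 250 CPM with vehicle and did not pass (edgeR adjusted p = 0.387).

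A list of genes of glycolysis, fructose entry and pyruvate use, with regulators of these steps, included 3 falls and 1 rise among 12 tested. That is 33.3%, against 7.25% of all rows, and without vehicle 1 there were again 3 falls and 1 rise, among 13 tested. This list too was chosen with earlier results of these data known, so its share carries no test. The genes do not all act in the same direction on gluconeogenesis. The rise did not pass without vehicle 3 or without atractylodin 3. Pklr, liver pyruvate kinase, had 7.67, 8.46 and 11.02 CPM with atractylodin, against 16.7, 26.4 and 22.5 CPM with vehicle (log2 -1.32 ± 0.19, edgeR adjusted p = 0.000517). Khk, ketohexokinase of fructose entry, fell 1.67-fold (adjusted p = 0.000345) and Gckr, the gene of the glucokinase regulatory protein, fell 1.34-fold (adjusted p = 0.00782). Pdk4, which shuts off pyruvate dehydrogenase and so spares pyruvate, had 4.68, 3.55 and 5.18 CPM with atractylodin, against 0, 1.80 and 1.13 CPM with vehicle (edgeR adjusted p = 0.0177). The groups did not overlap for any of these 4 genes, which were named because they passed. Such a separation was seen in 26.2% of all tested rows. The 0 of Pdk4 was in vehicle 1, where the floor of 3 counts was 1.61 CPM.

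Of 25 tested genes downstream of the insulin receptor substrates, 1 rose and none fell, which is 4% against 7.25% of all rows, and of 21 negative regulators of the pathway 2 rose and none fell, which is 9.52%. The rise downstream was of Rheb, the GTPase that activates mTORC1, at 32.8, 45.8 and 42.8 CPM with atractylodin, against 27.5, 25.2 and 27.1 CPM with vehicle (edgeR adjusted p = 0.0115), and it did not pass without vehicle 2, vehicle 3 or atractylodin 2. The AKT phosphatase gene Phlpp2 rose 2.32-fold (adjusted p = 0.041) and the pseudokinase gene Trib1 1.34-fold (adjusted p = 0.0343). Phlpp2 did not pass in any fit without 1 library, and Trib1 passed in 2 of the 6. Limma-voom called none of the negative regulators, and scaling by total counts called no rise and 1 fall.

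Of 35 genes of glucagon signalling and partners of PGC-1alpha, 3 rose and none fell, so that 8.57% passed where 7.25% of all rows did. Fits without 1 library gave 1 rise and no fall without vehicle 3, 2 rises and 1 fall without vehicle 1, and 4 rises and 1 fall without atractylodin 3. Hnf4a, the nuclear receptor that acts with PGC-1alpha on the Pck1 and G6pc promoters, had 462, 439 and 533 CPM with atractylodin, against 321, 270 and 291 CPM with vehicle. Values of the groups were separate (log2 0.71 ± 0.10, edgeR adjusted p = 0.000405), and the call held in all 6 fits that left out 1 library. Sik1, a kinase that cAMP induces and that restrains CREB coactivators, rose 2.05-fold (adjusted p = 0.0214), and Klf15, a regulator of amino acid use in fasting, rose 1.36-fold (adjusted p = 0.0177). Sik1 did not pass without vehicle 2, vehicle 3 or atractylodin 2, nor Klf15 without vehicle 1, vehicle 3 or atractylodin 3. The glucagon receptor gene Gcgr, named after its values were seen, was at 125, 145 and 124 CPM with atractylodin, against 108, 129 and 117 CPM with vehicle (adjusted p = 0.431).

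Of 26 tested genes known to be induced by FOXO factors, 9 rose and none fell. That is 34.6% of the list, where 3.92% of all rows rose, and its median log2 fold change was 0.34. The list was chosen with earlier results of these data known, so its share is a description and carries no test. Several of these genes answer to other signals too, and Pdk4, Klf15 and Trib1 are also in the groups above. Bnip3, a mitophagy receptor, had 417, 406 and 350 CPM with atractylodin, against 263, 263 and 221 CPM with vehicle (edgeR adjusted p = 0.000774). The pro-apoptotic gene Bcl2l11 rose 1.80-fold (adjusted p = 0.00414) and the cyclin gene Ccng2 1.90-fold (adjusted p = 0.00773). The count of rises was 4 without vehicle 1, 4 without vehicle 3, 5 without atractylodin 1, 4 without atractylodin 3, 4 with total counts scaling and 2 when every library was thinned to match vehicle 1, with no fall in any of these, and the median stayed at 0.26 or above in them. Without atractylodin 2 the count was 11 rises and 1 fall.

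Igfbp1, a classic target that FOXO1 raises and insulin lowers, was named after its values were seen. It had 482, 171 and 557 CPM in the atractylodin libraries, against 29.1, 50.1 and 68.2 CPM in the vehicle libraries. The groups did not overlap, yet the atractylodin libraries spread widely and the gene did not pass (log2 2.96 ± 0.62, edgeR adjusted p = 0.0796). Atractylodin 2 was the lowest of its group for Pck1 and Igfbp1 but the highest for G6pc, Irs1 and Irs2.

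**Figure D4:**
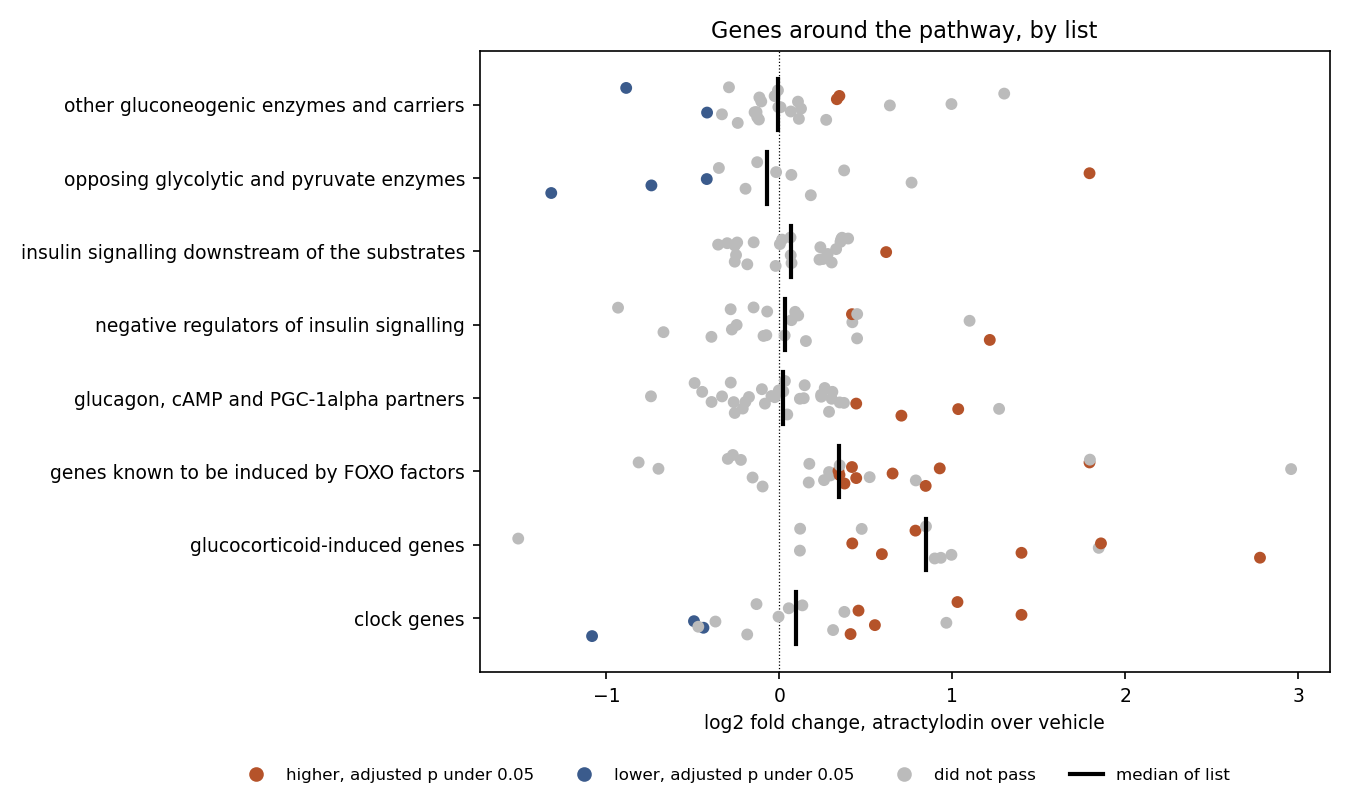
Log2 fold change, atractylodin over vehicle (x axis), of each tested gene in 8 lists around the pathway, with 1 point per gene, coloured where the adjusted p was under 0.05, and a black line at the median of each list. Points of the FOXO and glucocorticoid lists lie mostly to the right of 0, with medians of 0.34 and 0.85, while the medians of the other 6 lists lie between -0.07 and 0.09.

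Glucocorticoid-induced genes and clock genes were measured beside these results, since glucocorticoids and the clock are both known to act on Pck1. Of 15 glucocorticoid-induced genes 6 rose and none fell, or 40% where 3.92% of all rows rose. Their median log2 fold change was 0.85, and without vehicle 1 the count of rises was 5. Both this list and the clock list were chosen with earlier results of these data known, so their shares carry no test. Per1 is in both. Zbtb16 had 31.4, 32.4 and 34.99 CPM with atractylodin, against 2.15, 4.98 and 5.34 CPM with vehicle (edgeR adjusted p = 1.15e-07). Per1 had 35.2, 19.9 and 30.1 CPM with atractylodin, against 10.8, 12.0 and 9.54 CPM with vehicle (adjusted p = 0.000712), while Lpin1 rose 3.63-fold (adjusted p = 0.00644) and Angptl4 1.72-fold (adjusted p = 0.00154). The list was not uniform: Sgk1 and Dusp1, named after their values were seen, had log2 fold changes of 0.12 each and did not pass (adjusted p of 0.804 and 0.773). Estimates were higher with atractylodin for 14 genes of the list and lower for 1. That 1 was Lcn2, also named after its values were seen (log2 -1.51 ± 1.08, edgeR adjusted p = 0.522).

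Of 18 clock genes 5 rose and 3 fell, so that 44.4% passed where 7.25% of all rows did. The counts were 4 rises and 2 falls without vehicle 1, and 2 rises and 2 falls without vehicle 3, and scaling by total counts gave 3 rises and 4 falls. Nr1d1, a repressor of the clock, had 9.86, 14.4 and 11.8 CPM with atractylodin, against 28.0, 22.7 and 26.8 CPM with vehicle (edgeR adjusted p = 0.000994). Dbp fell 1.41-fold (adjusted p = 0.00619) and Rora rose 1.37-fold (adjusted p = 0.00454). The hour of sampling and the hours of fasting before it are not given in the sources used here, and the part of either list in the change of Pck1 was not tested.

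Pck1, Fbp1 and G6pc are expressed most in periportal hepatocytes, and zone markers were measured beside them. Of 13 periportal markers none rose and 2 fell, so that 15.4% passed where 7.25% of all rows did. Their sum was 3669 to 3829 CPM with atractylodin and 3498 to 3861 CPM with vehicle. Of 13 pericentral markers 2 rose and 4 fell, so that 46.2% passed where 7.25% of all rows did. Their sum was 9836 to 11384 CPM with atractylodin and 9633 to 10148 CPM with vehicle. Cyp2e1 was the largest part of that sum, at 5754 to 6967 CPM with atractylodin and 5214 to 5689 CPM with vehicle. The periportal sum overlapped between groups. Pericentral counts were 0 rises and 4 falls without vehicle 1, and 1 rise and 1 fall without vehicle 3. The 6 fits without 1 library gave 0 to 1 rises and 1 to 4 falls. With total counts scaling there were 0 rises and 4 falls. The marker sums of other cells were below those of the 2 zones, and red blood cells had the highest of them. The 10 cholangiocyte markers summed to 26.2 to 33.2 CPM with atractylodin and 49.97 to 65.7 CPM with vehicle. Of 5 tested, 2 fell, or 40% against 7.25% of all rows. The 17 macrophage markers summed to 321 to 484 CPM with atractylodin and 392 to 568 CPM with vehicle. None of 15 tested passed in edgeR, DESeq2 or limma-voom, with 4 at an unadjusted p under 0.05 in edgeR. Their edgeR estimates were lower with atractylodin for 12 and higher for 3. Macrophage markers passed as falls in other fits: 2 without vehicle 3, 2 without atractylodin 1 and 3 with no filter, with no rise. The sums of 7 adipocyte and 10 pancreatic acinar markers were 44.7 to 97.5 and 10.96 to 33.9 CPM with atractylodin, against 45.2 to 160 and 13.7 to 23.4 CPM with vehicle, with Adipoq and Prss1 at 0 in all 6 libraries. The 12 lymphocyte markers summed to 12.9 to 15.4 CPM with atractylodin and 10.2 to 16.9 CPM with vehicle, and neither of the 2 tested passed. The 7 red blood cell markers summed to 1465 to 2859 CPM with atractylodin and 1819 to 2324 CPM with vehicle. Of 5 tested, 1 fell, or 20%: Alas2 (edgeR adjusted p = 0.000845).

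The genes whose profile over the 6 libraries was most like that of each changed gene were found by the root mean square difference of log2 CPM, centred on the vehicle mean, among 9658 other rows. Nearest to Pck1 were Slc25a33, a mitochondrial carrier of pyrimidine nucleotides, at 0.17, then Lpin1 at 0.22 and Akr1c19 at 0.26. Slc25a33 averaged 47.8 CPM with atractylodin and 16.7 CPM with vehicle. Nearest to Foxo1 were St3gal5 at 0.05, Dnmbp at 0.07 and the endothelial receptor gene Flt1 at 0.10. Nearest to Pcx were Elmo2, Cdipt and Prelid1, each at 0.04, of which Prelid1 passed the test (adjusted p = 0.0178). Genes of small change have many close neighbours by this measure, and it says nothing of shared control.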

How the data were processed

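Per the labels' protocols, RNA was extracted with Trizol and 500 ng went into Lexogen QuantSeq libraries. The authors deposited raw counts per gene symbol, 1 table per library, without normalization. The tools Bowtie2 and bedtools and the build mm10 are named, per the submitters' processing notes. Roles, versions, annotation, strand setting and treatment of reads matching several genes are not given in the sources used here, so counts at loci that overlap other genes are uncertain, and a low count need not mean a low transcript level.

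Groups came from the titles. Rows were filtered with filterByExpr, scaled by TMM and tested in edgeR 4.0.16 (R 4.3.3) with the robust quasi-likelihood F-test, without covariates, with Benjamini-Hochberg adjustment over 12505 rows at 0.05. The standard error was the log2 fold change over the square root of F, and 95% intervals used the fit's degrees of freedom. The test was run on simulated data, where it recovered only part of the planted changes and made some false calls. No pair of libraries agreed within sampling noise. Alternatives were DESeq2 1.42.0, limma-voom (limma 3.58.1), other scalings and filters, thinning, a replicate block and leaving out each library. The labels give no batch or date.

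The members and lists were chosen with earlier results of these data known. Named were all 10 members, up to 4 passing genes per list in order of p, and the 3 nearest profiles of each changed member (average log2 CPM of at least 2). List counts under alternatives were added after seeing the data. Positions are from GENCODE M21 (GRCm38) and promoters from RefSeq (GRCm38.p6). Figures used matplotlib 3.10.9.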

Additional observations from a re-analysis of the deposited data

How the results depend on the processing

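The calls of Pck1 and Foxo1 held under all 9 alternatives of test, scaling, filter, depth and block and in all 6 fits that left out 1 library, with log2 fold changes without 1 library of 1.47 to 1.82 for Pck1 and 0.49 to 0.78 for Foxo1. Pcx kept its direction and its call under the 9 alternatives (log2 -0.47 to -0.36), but the call ended when vehicle 1, vehicle 2 or atractylodin 2 was left out (adjusted p 0.0522 to 0.0992). Over all 6 fits without 1 library its log2 fold change was -0.45 to -0.33. The number of members called was 3, and 2 to 3 in fits without 1 library. G6pc took either sign in those fits (log2 -0.058 to 0.29), and never passed. No alternative called Fbp1, Ppargc1a, Insr, Irs1 or Irs2. Irs2 had no value with a mean CPM of at least 5 or after thinning. Over all rows the 906 calls became 549 after thinning to the shallowest library and 467 to 751 in fits without 1 library. Fewer reads or libraries entered these fits, and what set their counts was not tested. Other settings gave more calls: 1345 with no filter and 1019 with total counts scaling. Leaving out the shallow vehicle 1 gave 494 calls and leaving out atractylodin 3 gave 751. With the replicate number as a block, 811 rows and 3 members passed. The labels give same-numbered libraries only a shared number. Their deviations from the group means correlated at -0.06, -0.12 and 0.06 across genes, and vehicle 2 correlated best with atractylodin 1 (0.20). With 3 libraries per group and a shallow vehicle 1, these values cannot tell whether libraries were paired. Foxo3 had 0 to 5 counts in a library and Irs2 had 4 to 67, and what set these low counts was not tested. Vehicle 1 had the highest floor, at 1.61 CPM.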
